A study of Mus musculus with 25 samples.

Results

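Small extracellular vesicles (sEVs), the lipid-enclosed particles shed by cells, were isolated from livers of 6-month-old mice and compared with those of 6-week-old mice, across every miRNA entry of the count table. The comparison used 10 of the 25 libraries of the series: 5 from mice aged 6 weeks (mice 6 to 10) and 5 from mice aged 6 months (mice 11 to 15), taken by the age in their titles, with 1 library per mouse. All mice were wild-type C57BL/6J, untreated as far as the labels say, and the other 15 libraries came from the same strain at 1 week, 12 months and 14 months. Livers were dissociated with a kit made for tumours, ultracentrifugation then gave the vesicles, and QIAseq miRNA libraries were sequenced on a NovaSeq. Vesicles of every cell type of the organ were pooled by this preparation, and both sexes were used per the labels, but the sex of each mouse is not given in the sources used here and sex was not in any fit. The batch label repeats the age, so that age and batch cannot be told apart.

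A miRNA is a short RNA that guides Argonaute proteins to messenger RNAs, chiefly through pairing of its seed near the 5′ end, and it lowers the stability and translation of those messages. Cells also release miRNAs inside vesicles, and hepatocytes are a main source of the miRNAs in liver preparations. Between 6 weeks and 6 months a mouse passes from adolescence to mature adulthood, a period in which the organ's postnatal growth ends.

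Mature sequences of miRNAs that passed the test, and of those sharing a seed with them, are given 5′ to 3′ as in RefSeq (GRCm38.p6), with the seed, bases 2 to 8, in capitals. Of those that passed, miR-383-5p and miR-669c-5p are named only. The first 3 form the miR-29 family and the next 2 the miR-221 and miR-222 pair, each group with a common seed. The last 3 belong to no common seed.
miR-29b-3p: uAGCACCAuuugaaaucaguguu
miR-29a-3p: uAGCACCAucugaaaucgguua
miR-29c-3p: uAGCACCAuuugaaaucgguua
miR-221-3p: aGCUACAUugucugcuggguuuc
miR-222-3p: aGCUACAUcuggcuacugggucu
miR-741-3p: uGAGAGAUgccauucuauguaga
miR-184-3p: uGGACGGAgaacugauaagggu
miR-409-5p: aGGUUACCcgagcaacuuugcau
Counted from the 5′ end, miR-29a-3p and miR-29c-3p differ by C10U alone. Over the first 22 positions miR-29b-3p differs from miR-29c-3p by A18G, G21U and U22A, and it has 23 bases where miR-29c-3p has 22. The miR-221-3p and miR-222-3p sequences differ at 12 of 23 positions, all outside the seed.

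Library depth differed within both ages. The 6-week libraries of mice 6 to 10 held 757330, 641579, 1012376, 1084868 and 1738208 counts, and the 6-month libraries of mice 11 to 15 held 1258885, 1129496, 1052751, 2485335 and 1141961. The means of 1046872 ± 426813 and 1413686 ± 603587 (SD, n = 5 each) did not differ beyond the spread (exact two-sided permutation test, p = 0.349, adjusted over 3 tests 0.349, where the smallest p of the design is 0.00794). A miRNA without a count in one of these libraries lies under a floor of 3 counts, or 1.56 to 4.89 counts per 1000000 (CPM, scaled with TMM factors). The number of entries with a count was 616.6 ± 36.5 at 6 weeks and 654 ± 33.4 at 6 months (adjusted exact permutation p = 0.349). After all libraries were thinned to 641579 counts, the numbers were 550.6 ± 28.9 and 540.6 ± 22.1, so the direction of this difference turned at equal depth.

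Of 1493 entries, 391 had enough counts to be tested. At an adjusted p of 0.05 (edgeR quasi-likelihood test, Benjamini-Hochberg), 7 passed, 1.79% of those tested. Higher at 6 months were miR-29b-3p, miR-221-3p, miR-741-3p and miR-184-3p (1.02%), and lower were miR-383-5p, miR-409-5p and miR-669c-5p (0.767%). For all 7 the values of the 5 libraries of one age lay outside the range of the other age, as they did for 18 of the 391 entries (4.6%), 11 of them higher (2.81%) and 7 lower (1.79%). Over the 10 libraries alone only miR-29b-3p and miR-221-3p of the 7 passed the count filter. The other 5 entered the test because the filter ran over the libraries of all 5 ages. At an unadjusted p of 0.05, 32 entries passed (8.18%), of which 22 were higher (5.63% of those tested) and 10 lower (2.56%). Scaled by library totals alone, without TMM factors, 1 entry passed as higher and 2 as lower, and the median log2 fold change of all tested entries moved from 0.0071 by -0.117 to -0.11. A value near 0 can thus turn sign with that scaling through a shift common to all entries, and medians of lists are therefore also given relative to the median of all entries. Entries with identical or near-equal counts (within 0.3 on the log2 scale in all 25 libraries) are counted once in the lists.

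**Figure D1:**
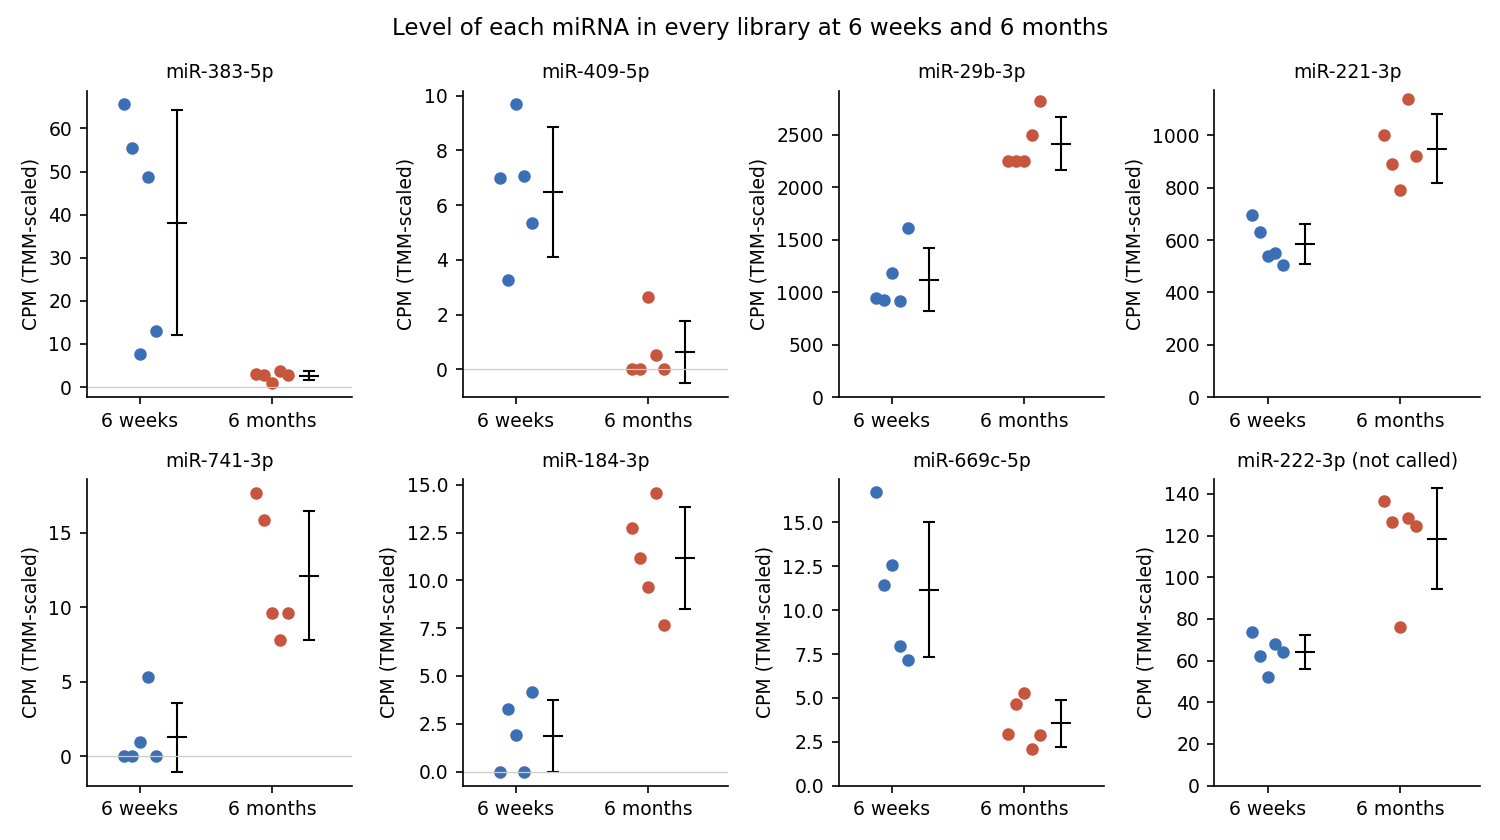
Level in CPM (y axis, TMM-scaled) of the 7 miRNAs that passed the test and of miR-222-3p, which did not, in each 6-week library (blue, mice 6 to 10 from left to right) and each 6-month library (red, mice 11 to 15), with the mean and SD of 5 libraries beside the points. In every panel the points of the 2 ages do not overlap, and miR-222-3p of mouse 13, at 76.3 CPM, lies close to the highest 6-week value of 73.9 CPM.

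miR-29b-3p was the most abundant miRNA to rise. The miR-29 family is best known for targeting messages of collagens and other matrix proteins and of DNA methyltransferases, and it has been linked with ageing in several tissues. In the 6-week libraries of mice 6 to 10, miR-29b-3p stood at 949, 930.0, 1187, 917 and 1612 CPM. In the 6-month libraries of mice 11 to 15 it stood at 2246, 2253, 2245, 2494 and 2821 CPM. Every 6-month library thus lay above every 6-week library, and the lowest 6-month level exceeded that of mouse 10, the highest of the younger mice. The means were 1119 ± 297 and 2412 ± 252.2 CPM (SD, n = 5 each), a log2 fold change of 1.11 ± 0.25 (SE), or 2.15-fold (adjusted p = 0.0162). As a share of raw counts it went from 0.11% ± 0.0287 to 0.218% ± 0.0322. The mature RNA can come from Mir29b-1 on chromosome 6 (31063023 to 31063093, minus strand, in an exon of the non-coding Gm27019) and from Mir29b-2 on chromosome 1 (195037040 to 195037120, plus strand, in an exon of the non-coding A330023F24Rik), in GRCm38.

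miR-29a-3p and miR-29c-3p, which share that seed, did not pass. In all 25 libraries their counts differed by at most 0.018 on the log2 scale, so the pair counts as a single measurement. miR-29a-3p stood at 5238, 5045, 6240.5, 6605 and 11377 CPM at 6 weeks and at 10208, 10181, 10996, 17520 and 13096 CPM at 6 months. The 6-week library of mouse 10 lay above 3 of the 5 older libraries, and the other 4 lay below all of them. The log2 fold change was 0.85 ± 0.30 for both entries (adjusted p = 0.23). Of the passenger arms, miR-29a-5p had a log2 fold change of 0.38 ± 0.47 (adjusted p = 0.93), miR-29b-2-5p of 0.71 ± 0.74 (0.913) and miR-29c-5p of 0.17 ± 0.25 (0.941). With miR-29a-3p and miR-29c-3p counted once, all 5 tested members of the family had a log2 fold change above 0, with a median of 0.71, beside 50.4% of all tested entries above 0 and a median of 0.0071. The summed level of the family, counted in the same way, was 6101 to 13092 CPM at 6 weeks and 12641 to 20206 CPM at 6 months, ranges that overlap through mouse 10.

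The deepest library of each age had high miR-29 levels. Mouse 10 had the deepest 6-week library and the highest 6-week level of miR-29b-3p, miR-29a-3p and miR-29c-3p. Mouse 14 had the deepest 6-month library, the highest 6-month level of miR-29a-3p and miR-29c-3p, and the second level of miR-29b-3p after mouse 15. At 6 weeks the level of miR-29a-3p followed depth through all libraries, from the shallowest to the deepest. That of miR-29b-3p did not, as mouse 9, the second deepest at 6 weeks, had the lowest 6-week level. At 6 months neither miRNA followed depth beyond mouse 14. Mouse 11, the second deepest at 6 months, stood at 2246 CPM of miR-29b-3p and 10208 CPM of miR-29a-3p, near the lowest of its age. With the log2 library total as a covariate, the log2 fold change of miR-29b-3p was 0.93 ± 0.17 (adjusted p = 0.00147) and that of miR-29a-3p 0.60 ± 0.19 (0.126). Both miR-29a-3p and miR-29c-3p passed in 3 alternatives, from the 10 libraries alone (0.78 ± 0.20 for miR-29a-3p, adjusted p = 0.0393), from these with the covariate (0.54 ± 0.11, 0.0174) and without mouse 10 (1.10 ± 0.30, 0.0494). Over their 22 alternatives the adjusted p ran from 0.0174 to 1. In the range of totals that both ages cover, 1052751 to 1738208 counts, only 2 of the 6-week and 4 of the 6-month libraries remain. There the miR-29b-3p value was 0.76 ± 0.36 (adjusted p = 0.681) and the miR-29a-3p value 0.15 ± 0.42 (1). The call for miR-29b-3p was also lost without mouse 14 (adjusted p = 0.061) or mouse 15 (0.0556), with log2 fold changes of 1.06 and 1.04. Over its 22 alternatives the adjusted p ran from 0.000462 to 0.681. The part of depth in the miR-29 difference was not tested beyond these fits.

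**Figure D2:**
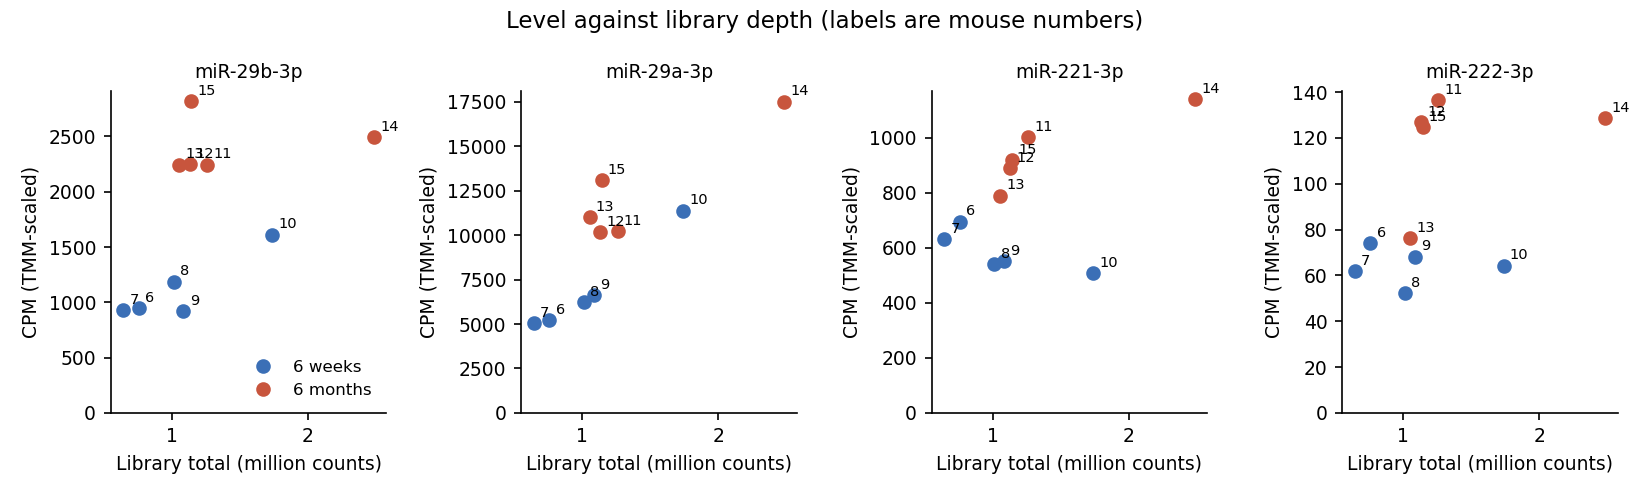
Level in CPM (y axis, TMM-scaled) of miR-29b-3p, miR-29a-3p, miR-221-3p and miR-222-3p against the library total in units of 1000000 counts (x axis), 1 point per library with its mouse number, 6 weeks in blue and 6 months in red. Mouse 10 is the rightmost blue point and has the highest blue level of both miR-29 miRNAs, and it has the lowest blue level of miR-221-3p, at 507 CPM.

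The X-linked miR-221-3p and its neighbour miR-222-3p are known for targeting the message of the cell cycle inhibitor p27 and that of the receptor Kit. miR-221-3p rose. It stood at 695, 631, 539, 552 and 507 CPM at 6 weeks and at 1003, 889.9, 789.8, 1140.1 and 919.7 CPM at 6 months. The lowest older library, of mouse 13, lay above the highest younger one, of mouse 6. The means were 585 ± 76.6 and 949 ± 131 CPM, a log2 fold change of 0.70 ± 0.17, or 1.62-fold (adjusted p = 0.0255). Its locus, Mir221, lies between genes on the X chromosome (19146294 to 19146388, minus strand, GRCm38).

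miR-222-3p, the rarer of the pair, did not pass, with a log2 fold change of 0.89 ± 0.24 (adjusted p = 0.0563). Its levels were 73.9, 62.0, 52.3, 68.1 and 64.2 CPM at 6 weeks and 136, 127, 76.3, 129 and 125 CPM at 6 months. These ranges do not overlap, with mouse 13 far below the other 4 older mice. It passed without mouse 13 (adjusted p = 0.028) and in 5 of 12 other settings: with named miRNAs alone (0.0398), in the DESeq2 test (0.0159), from the 10 libraries alone (0.0337), from these with the depth covariate (0.0424) and from the 20 adult libraries (0.000878). Over its 22 alternatives the adjusted p ran from 0.000878 to 0.697. At 12 and 14 months, miR-221-3p averaged 861 ± 132 and 893 ± 142 CPM and miR-222-3p 106 ± 16.7 and 117 ± 5.86 CPM, levels within the 6-month spread, given without a test. The miR-221-3p call was weak: it was lost under 6 of the 12 other settings and without any one of mice 8, 9, 11, 14 or 15 (adjusted p from 0.0556 to 0.0986). Its log2 fold change stayed between 0.56 and 0.77 in all 22 alternatives, while the adjusted p ran from 0.00326 to 0.681.

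The remaining rises were of rare miRNAs. miR-741-3p belongs to the Fmr1-Slitrk2 cluster, a rapidly evolving group of X-linked miRNAs known mainly from testis. It had 0, 0, 1, 6 and 0 counts in the 6-week libraries and 18, 17, 11, 15 and 10 counts in the 6-month libraries. In CPM, these are 0, 0, 0.968, 5.31 and 0 against 17.7, 15.8, 9.64, 7.81 and 9.60. All 5 older libraries lay above mouse 9, the only younger one with more than 1 count. From 7 counts against 71, the ratio was 8.47 (95% exact interval 3.91 to 21.8, counting error only). It was taken relative to the summed library sizes after TMM scaling, not to raw totals. The fitted log2 fold change was 3.09 ± 0.78 (adjusted p = 0.0487). Mir741 lies between genes on the X chromosome (66796805 to 66796875, minus strand, GRCm38). The call held without mouse 9 (log2 fold change 5.31, adjusted p = 0.00462) and was lost without any other single mouse (0.0555 to 0.143). Over its 19 alternatives the adjusted p ran from 0.00026 to 0.681.

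Of the 23 entries of that X-linked cluster in the table, miR-741-3p and miR-547-3p were tested, and miR-547-3p ranged from 0 to 5.58 CPM at 6 weeks and from 3.51 to 8.84 CPM at 6 months. The summed cluster stood at 8.37, 1.63, 6.78, 11.5 and 5.95 CPM at 6 weeks and at 39.3, 24.2, 17.5, 17.7 and 21.1 CPM at 6 months. Without miR-741-3p the sums were 1.63 to 8.37 CPM and 7.89 to 21.6 CPM, which overlap, from 30 counts against 71. miR-743a-3p had no count at 6 weeks and 10 counts at 6 months, spread over all 5 older libraries. In total 9 members had counts only at 6 months and 2 only at 6 weeks. The 6-month libraries held more counts on average, 1413686 against 1046872 at 6 weeks. The share of all entries with counts at only 1 age was not taken, so these numbers have no background beside them. At such low counts most members could not be compared at this depth.

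miR-184-3p, a conserved miRNA best known from the lens and cornea of the eye, rose as well. It had 0, 2, 2, 0 and 7 counts at 6 weeks and 13, 12, 11, 28 and 8 counts at 6 months, or 0, 3.26, 1.94, 0 and 4.16 CPM against 12.8, 11.2, 9.64, 14.6 and 7.68 CPM. Every older library lay above every younger one. The means were 1.87 ± 1.88 and 11.2 ± 2.68 CPM, and the log2 fold change was 2.45 ± 0.64 (adjusted p = 0.0487). Its locus lies between genes on chromosome 9 (89802260 to 89802328, minus strand, GRCm38). The call held without mouse 10 (adjusted p = 0.0395) and was lost without any other single mouse (0.0556 to 0.158). Over its 19 alternatives the adjusted p ran from 0.00459 to 0.681.

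**Figure D3:**
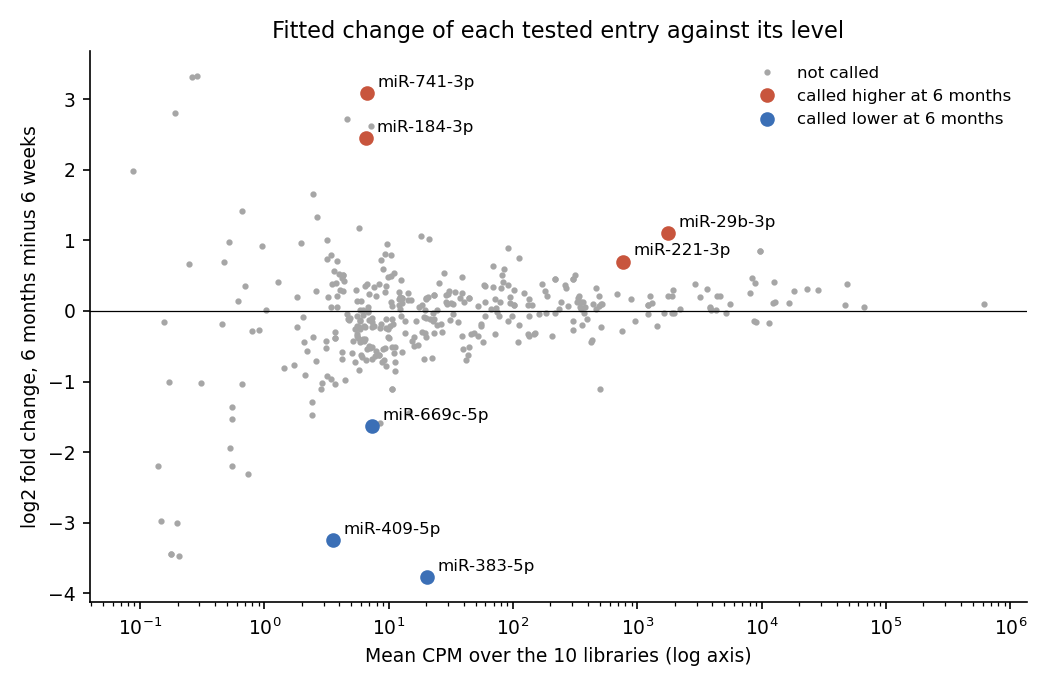
Fitted log2 fold change, 6 months minus 6 weeks (y axis), against the mean CPM over the 10 libraries (x axis, log axis) for each tested entry, with the 7 that passed the test in red (higher) or blue (lower). The 4 tested entries without a count in these 10 libraries are not drawn; of the 42 entries with a fitted fold of at least 2, 34 had a mean under 10 CPM.

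The fall of miR-383-5p was the largest fitted change of the 391 entries. It stood at 65.6, 55.5, 7.74, 48.7 and 13.1 CPM at 6 weeks and at 2.95, 2.80, 0.877, 3.65 and 2.88 CPM at 6 months, from 47, 34, 8, 55 and 22 counts against 3, 3, 1, 7 and 3. The younger libraries fell into a high trio (mice 6, 7 and 9) and a low pair (mice 8 and 10), and even the lowest lay above every older library. The means were 38.1 ± 26.1 and 2.63 ± 1.04 CPM, a log2 fold change of -3.77 ± 0.58, or 13.7-fold lower at 6 months (adjusted p = 0.000249). The Mir383 locus lies in an intron of Sgcz, the gene of a muscle sarcoglycan, on chromosome 8 (38252133 to 38252202, minus strand, GRCm38). At 12 and 14 months miR-383-5p averaged 0.219 ± 0.309 and 0.607 ± 0.651 CPM. Among the adult ages it thus passed the count filter through its high 6-week libraries, so its being tested is not separate from the fall. The call held with each of the 10 mice left out in turn and in the libraries of the common depth range (log2 fold change -3.83, adjusted p = 0.00373). It was lost after thinning to 641579 counts (-3.06, adjusted p = 0.102), the highest adjusted p of its 20 alternatives, and the lowest was 1e-09.

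miR-409-5p, from the imprinted Dlk1-Dio3 cluster of maternally expressed miRNAs, fell from a low level. Its counts were 5, 2, 10, 8 and 9 at 6 weeks and 0, 0, 3, 1 and 0 at 6 months, or 6.98, 3.26, 9.68, 7.08 and 5.35 CPM against 0, 0, 2.63, 0.521 and 0. No older library reached the lowest younger one, and 3 of the 5 older libraries were at 0. From 34 counts against 4, relative to the summed TMM-scaled library sizes, the level was 10.2 times as high at 6 weeks (95% exact interval 3.63 to 39.5). The fitted log2 fold change was -3.24 ± 0.65 (adjusted p = 0.00776). Mir409 lies in an intron of the non-coding Mirg on chromosome 12 (109743158 to 109743236, plus strand, GRCm38). The call was lost without mouse 14 (adjusted p = 0.0539), in the common depth range (0.248) and after thinning (0.326). Over its 18 alternatives the adjusted p ran from 0.000495 to 0.326.

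Most of that cluster was already rare at 6 weeks. Of its 95 entries 56 were tested here because they passed the count filter over all 5 ages, and 48 of these had a mean under 10 CPM in the 10 libraries. miR-409-5p was the only 1 of the 56 to pass, a share equal to the 1.79% of all tested entries. With miR-376b-5p and miR-376c-5p, of near-equal counts, counted once, 55 tested members remained. Of these 18 were above 0 and 33 below, and 4 had no count at either age. Their median was -0.30, beside -0.21 for all tested entries under 10 CPM. The 8 members with a mean of at least 10 CPM ranged from -0.73 to 0.35. With every entry counted, the summed cluster was 184 to 628 CPM at 6 weeks and 179 to 699 CPM at 6 months, whereas it was 13387 to 32458 CPM at 1 week.

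miR-669c-5p, one of a large family of repeated miRNA genes in an intron of Sfmbt2, fell. It stood at 16.7, 11.4, 12.6, 7.97 and 7.14 CPM at 6 weeks and at 2.95, 4.66, 5.26, 2.08 and 2.88 CPM at 6 months, from 12, 7, 13, 9 and 12 counts against 3, 5, 6, 4 and 3. All older libraries lay below all younger ones. The means were 11.2 ± 3.86 and 3.57 ± 1.33 CPM, which is a log2 fold change of -1.63 ± 0.43, or 3.09-fold lower (adjusted p = 0.0487). Mir669c lies on chromosome 2 (10509296 to 10509404, plus strand, GRCm38), and how counts were split among the near-identical copies of this family is not given in the sources used here, so the value is uncertain. At 12 and 14 months it averaged 9.11 ± 3.00 and 7.45 ± 3.57 CPM, between the 6-week and 6-month means. The call held without mouse 10 (adjusted p = 0.0473) or mouse 13 (0.0436) and was lost without any other single mouse (0.0564 to 0.153), and over its 19 alternatives the adjusted p ran from 0.0232 to 0.7.

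**Figure D4:**
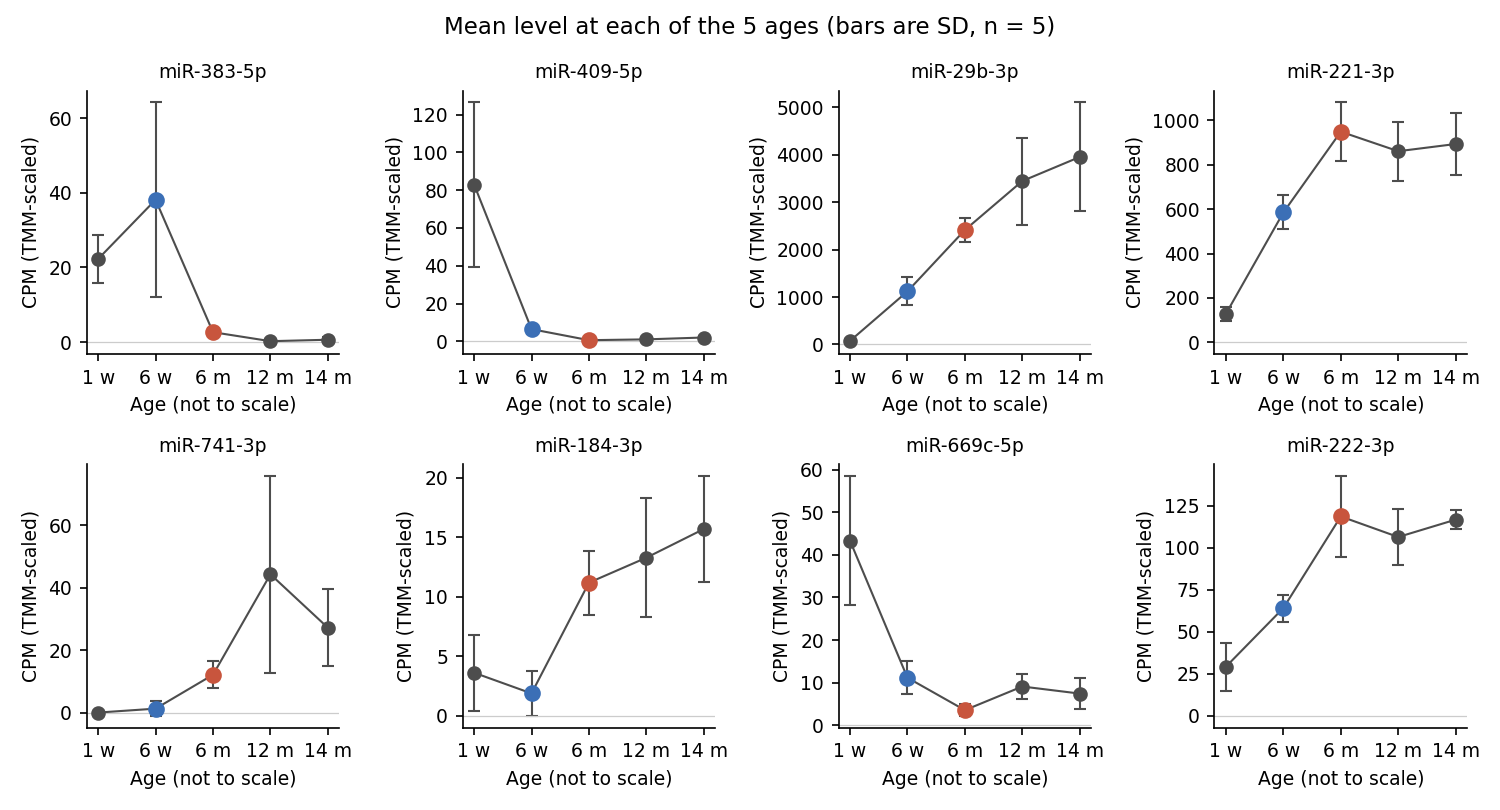
Mean level in CPM (y axis, TMM-scaled) of the 7 miRNAs that passed the test and of miR-222-3p at 1 week, 6 weeks, 6 months, 12 months and 14 months (x axis, ages not to scale), with SD bars over 5 libraries, 6 weeks in blue and 6 months in red. miR-29b-3p goes from 75.6 CPM at 1 week to 3950.4 CPM at 14 months, and miR-409-5p from 83.0 CPM at 1 week to 0.63 CPM at 6 months.

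Several miRNAs close to the threshold did not pass but did so in some alternatives. miR-592-5p, from the Grm8 locus, gave a log2 fold change of 2.61 ± 0.72 at an adjusted p of 0.0563, from 0, 3.26, 1.94, 0 and 4.16 CPM at 6 weeks and 3.93, 10.3, 28.9, 13.5 and 5.76 CPM at 6 months. Mouse 11 lay below mouse 10, so the ages overlap, and it passed in 4 of 8 other settings and without mouse 10 (adjusted p from 0.00527 to 0.681 over all). miR-3065-5p had 6 counts at 6 weeks and 47 at 6 months (2.72 ± 0.79, adjusted p = 0.0759), and its locus lies antisense to Mir338, whose reads cannot be told apart from it without strand. It passed in 3 of 8 other settings (adjusted p from 0.0018 to 0.681). The hepatocyte and gut miRNA miR-194-5p went from 6493 to 8456 CPM in the younger libraries to 9601 to 10864 CPM in the older ones. These ranges do not overlap, and the log2 fold change of 0.40 ± 0.12 had an adjusted p of 0.0813. Only with the 20 libraries of the 4 adult ages did miR-194-5p pass (adjusted p = 0.0135), and over its alternatives the adjusted p reached 0.98.

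On the lower side, miR-301a-3p and miR-301b-3p had identical counts in 25 of 25 libraries and count as a single measurement. This member of the miR-130 seed family ranged from 11.4 to 18.4 CPM at 6 weeks and from 5.21 to 9.82 CPM at 6 months, with a log2 fold change of -1.11 ± 0.36 (adjusted p = 0.13). These ranges do not overlap, and the pair passed in 3 of 12 other settings, that of the 10 libraries alone among them (adjusted p from 0.0204 to 0.906). miR-130b-3p and miR-130a-3p carry that seed too, and the 3 tested entries with a RefSeq sequence had a median of -0.52. They ranged from -1.11 to 0.067, with 1 above 0. Their summed level was 319 to 648 CPM at 6 weeks and 503 to 544 CPM at 6 months, ranges that overlap. miR-677-5p ranged from 5.95 to 22.8 CPM and from 1.75 to 7.45 CPM (-1.58 ± 0.62, adjusted p = 0.333), and it passed in 1 of 8 other settings (0.0263). miR-145a-3p (0.64 ± 0.24, adjusted p = 0.291), miR-101c (0.51 ± 0.20, 0.333) and the pair miR-10a-5p and miR-10b-5p (0.45 for both, 0.333) were on the higher side. Of these, miR-101c did not overlap, with 245 to 286 CPM at 6 weeks and 332 to 429 CPM at 6 months, and it passed in 3 of 12 other settings (adjusted p from 0.0208 to 0.959).

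The abundant miRNAs of liver did not pass. The 10 most abundant held 81.5% to 85% of counts in the 6-week libraries. The hepatocyte miRNA miR-122-5p, which takes part in lipid metabolism, held 58.4% ± 2.75 of counts at 6 weeks and 56.8% ± 1.73 at 6 months, a difference of -1.60 percentage points (exact permutation test, p = 0.294, adjusted 0.349). Its fitted log2 fold change was 0.10 ± 0.12 (adjusted p = 0.928), so its sign depended on the scaling. miR-148a-3p, a hepatocyte miRNA of lipid handling, had a log2 fold change of 0.054 ± 0.17 and turned to -0.091 with library totals alone. miR-192-5p, made together with miR-194-5p, had 0.39 ± 0.20 (adjusted p = 0.606), and 4 of its 5 older libraries lay above the highest younger one of 47937 CPM.

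Among the other abundant miRNAs, let-7a-5p had a log2 fold change of 0.31 ± 0.13 (adjusted p = 0.417), let-7f-5p 0.28 ± 0.14 (0.6) and let-7c-5p 0.41 ± 0.17 (0.373). The let-7 family represses growth and cell cycle messages. Its 10 tested guide arms, miR-98-5p included and let-7i-5p and let-7j counted once, had 9 log2 fold changes above 0 and a median of 0.30. That lay 0.29 above the median of all entries, and 0.26 above it with library totals alone. All of these arms but let-7k and miR-98-5p exceeded 1000 CPM, a level at which 35 of 44 tested entries were above 0, with a median of 0.11. With let-7i-5p and let-7j both counted, 9 of 11 were above 0 with the depth covariate, with a median of 0.23. In the common depth range, with 2 and 4 libraries, 6 were above 0 and 5 below. Their median there was 0.0036, which was 0.063 above that of all entries. miR-26b-5p had 0.30 ± 0.18 (adjusted p = 0.642). The endothelial miRNA miR-126a-3p had 0.088 ± 0.16, miR-21a-5p, found in many cell types, 0.11 ± 0.27, and miR-16-5p 0.13 ± 0.27 (adjusted p = 0.947 for all 3), and each turned below 0 with library totals alone.

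Of 49 tested marker miRNAs of the cells that a liver preparation can hold none passed, beside 1.79% of all tested entries, so that the count is near the background. Of 12 tested hepatocyte miRNAs 10 had a log2 fold change above 0 (median 0.17, which was 0.16 above that of all entries with either scaling). Their sum was 673517 to 760546 CPM at 6 weeks and 627739 to 902561 CPM at 6 months. With miR-101a-3p and miR-101b-3p both counted, 8 of 13 were above 0 with library totals alone. In the common depth range 6 were above 0 and 7 below, and the median of -0.035 lay 0.024 above that of all entries. Several of these miRNAs exceeded 1000 CPM, a level at which 35 of 44 tested entries were above 0. The 8 leukocyte miRNAs split 4 to 4, their median of 0.074 lying 0.067 above that of all entries and, at -0.089 with library totals alone, 0.021 above it, with sums of 4901 to 6804 and 4324 to 9859 CPM, led by miR-146a-5p at 2440 to 3997 and 2104 to 6574 CPM. For the 4 erythroid miRNAs the median was -0.021, or -0.029 relative to all entries, and miR-451a, the red cell miRNA, ranged from 113 to 368 CPM and from 151 to 408 CPM. The sums of hepatocyte, leukocyte and erythroid markers overlapped between the ages.

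The endothelial pair of miR-126a arms had a median of 0.092, which was 0.085 above that of all entries and, at -0.047 with library totals alone, 0.063 above it, and sums of 44626 to 53622 and 41029 to 61308 CPM. Both arms exceeded 1000 CPM, and the pair lay slightly below the median of entries at that level, 0.11, or -0.014 with library totals alone. For the 7 stellate and smooth muscle miRNAs, led by miR-143-3p at 4658 to 5795 and 4438 to 5838 CPM, the median was 0.078, which was 0.071 above that of all entries and, at -0.055 with library totals alone, 0.055 above it. The 7 biliary and other epithelial miRNAs had 6 log2 fold changes above 0 and a median of 0.24. That was 0.23 above the median of all entries and, at 0.10 with library totals alone, 0.21 above it. miR-31-5p stood at 420 to 741 and 352 to 608 CPM and miR-200a-3p at 197 to 273 and 274 to 320 CPM. Of miRNAs from muscle, neurons and pancreas 5 were tested, 4 above 0, with a median of 0.75 and sums of 96.3 to 169 and 144 to 230 CPM. Most of that sum was miR-137-3p, a neuronal miRNA, at 50.2 to 133 CPM and 105 to 199 CPM, whereas miR-133b-3p and miR-208b-3p had no count in the 10 libraries. The part of these cell types in the 7 changes was not tested, and fewer vesicles of one cell type cannot be told apart from less of its miRNA per vesicle.

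**Figure D5:**
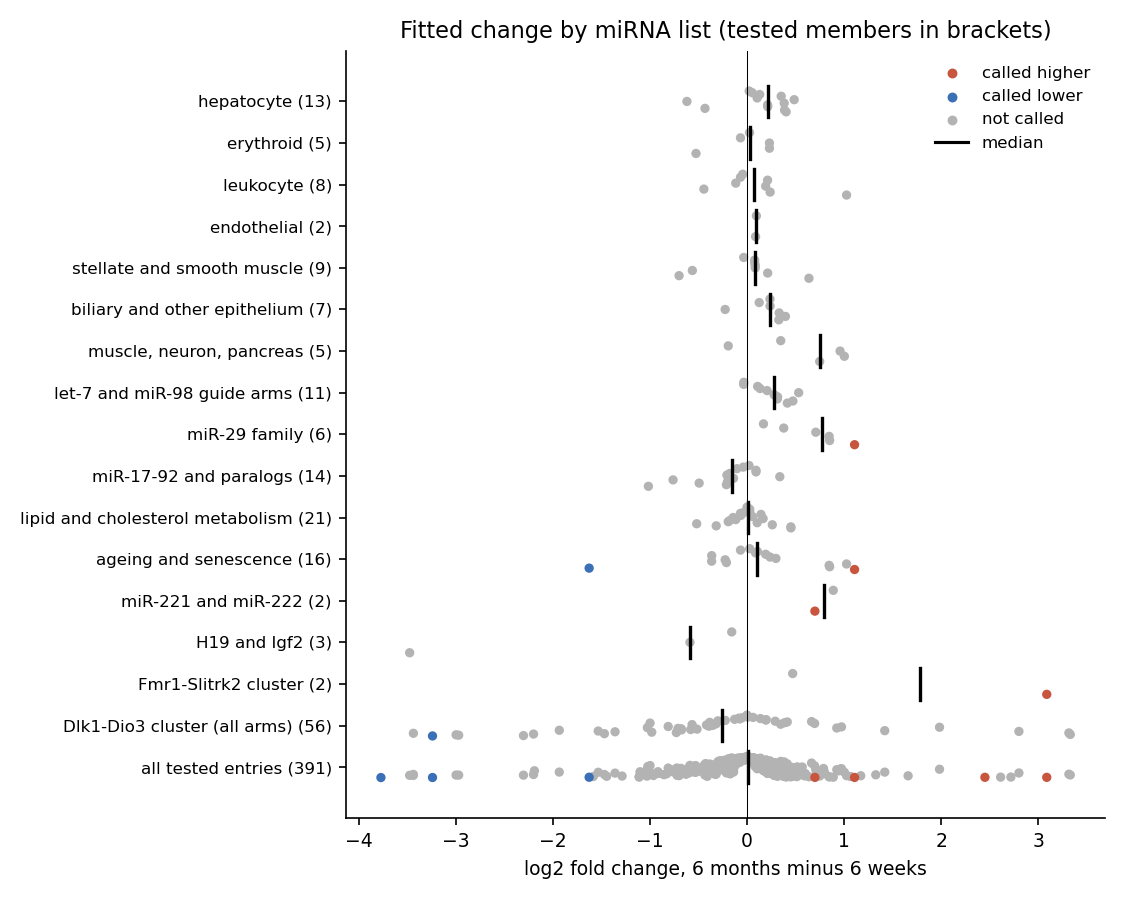
Fitted log2 fold change, 6 months minus 6 weeks (x axis), of the tested members of each miRNA list (y axis, number tested in brackets), with members that passed the test in red (higher) or blue (lower) and the median as a black bar. Entries with near-equal counts are drawn separately, so that the bar of the miR-29 family lies at 0.78, and that of all 391 entries lies at 0.0071.

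Lists of miRNA function and genomic origin held 0 to 2 members that passed, beside 1.79% of all tested entries. The 13 tested miRNAs of the miR-17-92 cluster and its paralogs, a group that promotes proliferation, had 10 log2 fold changes below 0 and a median of -0.18, with none passing. Its most abundant member, miR-93-5p, ranged from 1302 to 1996 CPM at 6 weeks and from 1018 to 1640 CPM at 6 months. The 19 tested miRNAs of lipid and cholesterol metabolism had 9 above 0, 9 below and none passing. The other, miR-370-3p, had no count in the 10 libraries. Its fitted value of 0 was the list median, which thus lay 0.0071 below that of all entries. With library totals alone the list median lay 0.0074 below that of all entries. Of 15 miRNAs of ageing and senescence, miR-29b-3p rose and miR-669c-5p fell, and the median of 0.088 lay 0.080 above that of all entries and, at -0.052 with library totals alone, 0.058 above it. The H19 and Igf2 miRNAs were near the floor, the highest being miR-483-5p at 0 to 19.6 CPM and 0 to 23.0 CPM.

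The fitted changes of low and abundant entries differed in some settings and not in others. The 167 entries with a mean under 10 CPM had a median log2 fold change of -0.21 and a median SE of 0.65, and the 44 entries of at least 1000 CPM had 0.11 and 0.16. With library totals alone the medians were -0.33 and -0.014, and with the depth covariate -0.13 and 0.10. The difference was small after thinning (-0.058 for the 58 low entries still tested, and 0.046) and absent in the common depth range (-0.092 and -0.086), and the 10 libraries alone left only 5 low entries to test. Between these, the 119 entries from 10 to 100 CPM had a median of 0.022 and the 61 from 100 to 1000 CPM one of 0.078. Of the 7 calls, miR-741-3p, miR-184-3p, miR-409-5p and miR-669c-5p lay under 10 CPM, miR-383-5p from 10 to 100 CPM, miR-221-3p from 100 to 1000 CPM and miR-29b-3p above 1000 CPM.

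The shared seeds were also compared. The 10 tested miRNAs with the let-7 seed, GAGGUAG, had a median of 0.30 with 9 above 0, and with the miR-29 seed miR-29b-3p had 1.11 and the near-equal pair 0.85. Short motifs described for sorting of miRNAs into vesicles were searched on the mature strand of the 293 tested miRNAs with a RefSeq sequence. GGAG was found in 9.56% of them, and in miR-184-3p of the 5 that passed the test and could be searched (miR-383-5p and miR-669c-5p could not). GGCU was found in 11.6%, miR-222-3p among them, and CCCU in 7.17%, miR-10a-5p and miR-10b-5p among them. The median log2 fold change with and without GGAG was 0.055 and 0.031. For CCCU it was 0 and 0.053, and for GGCU 0.0049 and 0.057, so the direction differed between the motifs.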

How the data were processed

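Small RNA of liver vesicles was measured in 25 libraries. The authors deposited 1 table of raw counts per miRNA, with 1493 entries (1095 named miRNAs and 398 called unconservative, which the labels do not explain). Per the submitters' processing notes, Bowtie, edgeR and the mouse build mm10 were used. Versions, the miRNA annotation, mismatches, strand use and whether counts are reads or unique molecular identifiers are not given in the sources used here, so intervals and floors cover counting error only. A further deposited column of gene length (a unit of its own) was not used.

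Counts were fitted with edgeR 4.0.16 in R 4.3.3: filterByExpr (minimum count 10, smallest group 5), TMM factors, a robust quasi-likelihood fit of all 25 libraries with age as the only term, which pools the spread, and the contrast of 6 months minus 6 weeks. The threshold was a Benjamini-Hochberg adjusted p of 0.05. The filter kept 391 entries (339 named). The 1102 others held 0.0492% of counts of the 10 libraries, none with a mean above 5.02 CPM. The biological coefficient of variation was 37.6%. Each SE is approximate, being the size of the fitted change divided by the root of its F statistic. Replicates are separate mice per the labels. Library totals, the miR-122-5p share and entries detected went into exact permutation tests, two-sided (scipy 1.17.1), adjusted over 3. Intervals of ratios are 95% Clopper-Pearson intervals.

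Named are all entries past the threshold, those with the smallest p up to 20, the 10 most abundant, up to 4 tested members of each of 16 lists by level and all tested miR-29 members. miR-743a-3p, miR-133b-3p, miR-208b-3p and miR-130b-3p were named after their values were seen. The comparison, members and lists were chosen with earlier results of these data known. Sequences and loci come from RefSeq GRCm38.p6 and GENCODE M21, and 293 of the tested entries matched a sequence. Alternatives were DESeq2 1.42.0 size factors and test, library totals alone, other filters, named miRNAs alone, fewer ages, a depth covariate, thinning to 641579 counts and leaving out each mouse. The fit in the common range of depth and the counting of near-equal entries once were added after the data were seen.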

Additional observations from a re-analysis of the deposited data

Results flagged for a closer look

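In 72 groups of 5 libraries, 7 had a highest or lowest library whose gap to the next was above 0.71 of the range, where chance gives about 1 in 20 groups. The library of mouse 14, at 6 months, held 2485335 counts, and the other 4 held 1052751 to 1258885. At 6 months miR-409-5p stood at 2.63 CPM in mouse 13 and at 0 to 0.521 CPM in the others. At 6 months miR-222-3p stood at 76.3 CPM in mouse 13 and at 125 to 136 CPM in the others. At 6 weeks miR-741-3p stood at 5.31 CPM in mouse 9 and at 0 to 0.968 CPM in the others. Mouse 10, at 6 weeks, had 11411 CPM of miR-29c-3p and 11377 CPM of miR-29a-3p, where the other 4 had 5076 to 6619 and 5045 to 6605. Mouse 6 had 6.98 CPM of miR-29b-2-5p, and the other 6-week mice had 1.63 to 2.97. Since miR-29a-3p and miR-29c-3p have near-equal counts, their 2 entries are a single deviation.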

How the results depend on the processing

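No paired analysis was possible because no mouse number occurs at both ages. Against 7 entries that passed (4 higher, 3 lower), counts were 3 (1 and 2) with library totals alone, 7 (5 and 2) without a filter, 2 (1 and 1) among the 218 entries of at least 10 CPM, 9 (6 and 3) with named miRNAs alone, and 10 (7 and 3) with the DESeq2 test. They were 9 (6 and 3) from the 10 libraries alone, where 2 of the 7 were among the 224 tested, both passed and 7 other entries joined them, 15 (10 and 5) from the 20 adult libraries, with 281 tested, 3 (1 and 2) with the depth covariate, 9 (7 and 2) with it in the 10 libraries, 1 (1 and 0) after thinning, and 1 (0 and 1) in the common depth range. DESeq2 size factors kept all 7. Leaving out 1 mouse gave 1 to 9 calls, 0 to 6 higher and 1 to 3 lower. The lowest was without mouse 14 (1 call) and the highest without mouse 10 (9), and a smaller group also lets 408 to 428 entries into the test. miR-383-5p passed in 9 of 10 other settings in which it was tested, miR-29b-3p in 11 of 12, miR-409-5p in 6 of 8, miR-221-3p in 6 of 12, miR-741-3p and miR-184-3p in 5 of 9 each, and miR-669c-5p in 4 of 9; none of the 7 changed direction. The difference in miR-122-5p became 44307 CPM in TMM-scaled CPM (exact permutation p = 0.357), and that in entries detected -10 after thinning (0.571). Signs also turned, all without passing, for miR-122-5p (-0.040 with library totals alone, -0.035 in the common depth range), miR-126a-3p (-0.052) and miR-16-5p (-0.0100) with library totals alone, and miR-26b-5p (-0.023) and miR-29a-5p (-0.031) in the common depth range. miR-21a-5p turned to -0.012 with library totals alone, -0.089 with the covariate in the 10 libraries, -0.52 in the common depth range and -0.0045 without mouse 13 (-0.0045 to 0.27 with 1 mouse left out). miR-148a-3p turned to -0.091 with library totals alone, -0.0071 at 10 CPM or more, -0.022 with named miRNAs alone, -0.030 from the 10 libraries, -0.049 with the covariate, -0.083 with both, -0.018 after thinning, -0.18 in the common depth range, -0.031 without mouse 8 and -0.068 without mouse 14 (-0.068 to 0.16 with 1 mouse left out). The cause was not tested. With 1 count worth 0.521 to 1.63 CPM, the values of miR-741-3p, miR-184-3p, miR-409-5p and miR-669c-5p rest on few counts per library.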

Other observations

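Entries outside those named by the rule also had 5 libraries of one age outside the range of the other, and were picked for that after their values were seen. miR-149-5p stood at 7.73 to 16.3 CPM at 6 weeks and 18.2 to 28.5 CPM at 6 months (log2 fold change 1.07 ± 0.43, adjusted p = 0.373). miR-15a-5p stood at 331 to 453 and 490.1 to 592 CPM (0.33 ± 0.27, adjusted p = 0.836). miR-122-3p, the passenger arm of the most abundant miRNA, stood at 461 to 511 CPM at 6 weeks and 266 to 437 CPM at 6 months (-0.43 ± 0.23, adjusted p = 0.606), while miR-122-5p overlapped. miR-1839-3p stood at 11.2 to 22.8 and 0.96 to 10.52 CPM (-0.86 ± 0.48, adjusted p = 0.61). In the leukocyte miRNA miR-155-5p the ages overlapped, with 14.0 to 58.9 CPM at 6 months beside 11.9 to 16.7 CPM at 6 weeks (1.02 ± 0.52, adjusted p = 0.6).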
